A study of Homo sapiens with 16 samples.

Results

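RNA of T47D cells, a luminal, estrogen receptor-positive breast cancer cell line of human origin, was compared between FAH knockout and control guide cells, both under vehicle (DMSO in the sample titles). FAH encodes fumarylacetoacetate hydrolase. Each genotype had 4 vehicle libraries, named knockout and control libraries here. A further 4 libraries of each genotype were treated with 500 nM abemaciclib (which inhibits CDK4 and CDK6, kinases of the cell cycle) for 3 days. They entered the same model and gave a second measurement of the knockout effect, in other libraries of the same genotypes. Every library came from the same line in high-glucose medium with serum, and the 8 vehicle libraries differed in genotype alone by their labels. Neither the guides nor the make-up of the knockout population (1 clone, several or a pool) are given in the sources used here. Nothing in the labels says that a group's 4 libraries are separate cultures, so p-values measure the spread between libraries, which may be technical, and the contrast is one knockout population against one control population. The genes described are the 15722 with at least 1 count per 1000000 assigned reads (CPM) in at least 4 of the 8 vehicle libraries, out of 78894 features deposited beside the spike-in controls.

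Tyrosine is broken down in a chain of enzymes that is most active in liver and kidney, and FAH carries out its last step, the split of fumarylacetoacetate into fumarate and acetoacetate. When FAH is missing in the liver, fumarylacetoacetate and its reduced products accumulate and are toxic, which is the basis of hereditary tyrosinemia. Luminal breast cancer cells such as T47D depend on estrogen receptor signalling and on cyclin D with CDK4 and CDK6 for entry into the cell cycle. Of the gene systems that recur below, type I and III interferons act through JAK kinases, STAT proteins and IRF9 on an interferon-stimulated response element, NF-kappaB dimers bind kappaB sites and induce their own inhibitors, and ATF4, the transcription factor of the integrated stress response, drives genes of amino acid supply through C/EBP-ATF elements.

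The vehicle libraries held 9915776 to 11963093 assigned reads, so 1 CPM stood for 9.92 to 11.96 reads. Over the tested genes, log values correlated at 0.9954 to 0.9959 within a genotype and at 0.9876 to 0.9884 between genotypes. The first principal component carried 57.8% of the variance and lay between 16.37 and 17.76 in the knockout libraries and between -17.64 and -16.59 in the control libraries. The second carried 7.9% and set control libraries 1 and 4 apart from control libraries 2 and 3. Values below are CPM, with means ± SD of 4 libraries per genotype, and differences are knockout minus control on the log2(CPM + 1) scale, called log2 units, which understates the change of genes near 1 CPM. A gene is said to have risen or fallen where limma gave a Benjamini-Hochberg adjusted p under 0.05 over all 15722 genes. Knockout and control libraries did not overlap for 22.5% of these genes upward and 13% downward, so a lack of overlap was common. For 80 tested genes no library of one genotype reached 1 CPM. These passed the minimum through the other genotype alone and so had to differ, and 55 of them were called higher and 20 lower. They include MEX3B, RSAD2, TNFAIP3, LTB, SLC6A14 and INHBE, whose values are given as a description. PLEKHS1, TFAP2B, DKK1, TNFSF15 and TLR3 are close to this case. Only 1 control library of each reached 1 CPM, and the 4 knockout libraries alone met the minimum. Their calls and p-values carry much the same limit.

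A further limit is that reads counted in part, as when a read maps to or overlaps several genes, cannot be assigned to 1 gene. Genes with whole reads in at most 8 of the 16 libraries, 4868 or 31.0% of those tested, are said to have partly shared reads, and their values are uncertain. Of the genes named below these are ADAMTS7, ADAR, ASNS, ATF4, BDH1, BDH2, CALR, CDK4, COX8A, DUSP4, EIF2AK2, ELF3, FANCD2, FAS, FASN, FTL, GARS1, GAS5, GLUL, GOLGA6L10, HLA-B, HMGCS1, HSPA5, HSPB1, IFIT3, IFITM3, IRF9, JAK1, JUND, KRT18, KRT19, KRT8, LDHA, LIN28A, MIR4435-2HG, MT-CYB, MT-ND5, MTHFD2, MTHFS, MX1, NEAT1, OCLN, OPTN, PGR, PSPH, RIGI and SLC1A5. Of the lists below, 4 of 7 IFIT and IFITM genes, 1 of 5 genes of the OAS list, 4 of 43 other interferon-stimulated effectors, 3 of 22 NF-kappaB subunits and inhibitors, 10 of 22 serine and one-carbon enzymes and 28 of 39 translation factors have partly shared reads.

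FAH itself (ENSG00000103876, chr15:80152490-80186946 of GRCh38, plus strand) was measured at 6.77, 6.53, 6.27 and 7.02 CPM in the knockout libraries, against 25.1, 27.5, 25.2 and 28.2 CPM in the control libraries. The groups did not overlap. FAH mRNA averaged 6.65 ± 0.323 CPM in knockout cells against 26.5 ± 1.57 CPM in control cells (SD, n = 4 each), 25.1% of control, and fell by 1.84 log2 units (SE 0.0790, limma adjusted p = 6.0e-19). A two-sided exact permutation over the 70 assignments of 4 against 4 libraries gave p = 0.0286, the smallest possible. The mRNA level does not give the amount of protein left. Of the 20 tested protein-coding neighbours, 10 on each side, 4 rose and 2 fell, with a median of 0.01 log2 units. Over all tested genes 24.9% rose and 13.5% fell, with a median of 0.054. The nearest, ZFAND6, which ends 14.1 kb before FAH, averaged 60.8 ± 2.94 CPM in knockout cells against 60.5 ± 2.19 CPM in control cells and differed by 0.01 log2 units, without passing the test. STARD5, a cholesterol-binding protein gene 1122 kb further along, showed the largest change of the 20. It was measured at 4.47, 3.39, 3.00 and 3.88 CPM in the knockout libraries, against 8.22, 6.84, 5.85 and 6.22 CPM in the control libraries, without overlap, and fell by 0.73 log2 units (SE 0.112, limma adjusted p = 2.7e-06). ADAMTS7 rose by 0.48 log2 units, and MEX3B, below 1 CPM in every control library, differed by 0.52. MEX3B is 1 of the 4 counted as higher but passed the minimum through the knockout libraries alone. GOLGA6L10 (0.42) and MTHFS (0.16) also passed the test upward, but not in every fit that left out a library. GOLGA6L10 had limma adjusted p = 0.0592 to 0.134 without knockout library 1, 3 or 4 or control library 1 or 3, and MTHFS limma adjusted p = 0.0507 to 0.139 without knockout library 3 or 4 or control library 1 or 3.

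**Figure D1:**
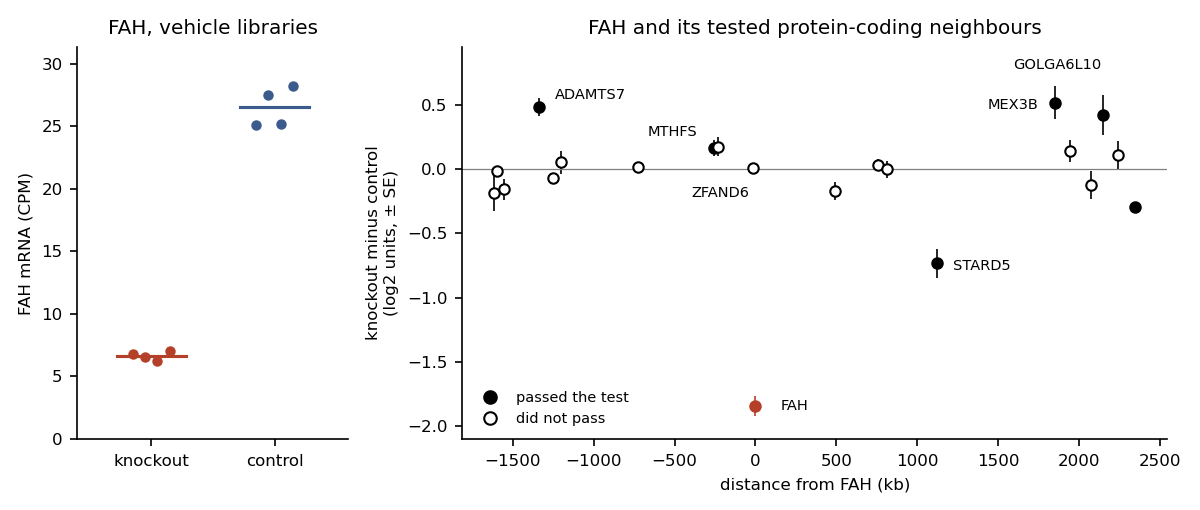
FAH mRNA in CPM in the 4 knockout (left) and 4 control (right) vehicle libraries, with the mean as a bar, and the knockout minus control difference in log2 units (± SE) of FAH and its 20 tested protein-coding neighbours by distance from FAH in kb. FAH stands alone at -1.84 log2 units, the neighbours lie between -0.73 and 0.52, and filled points passed the test.

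The other enzymes of tyrosine breakdown were low or little changed. TAT, HPD and HGD, enzymes of the first steps of the chain, were each below 1 CPM in every vehicle library and were not tested. HGD was at 0.084, 0, 0 and 0.092 CPM in the knockout libraries and was listed at 0 in all 4 control libraries. GSTZ1, which makes the substrate of FAH, averaged 46.6 ± 3.14 CPM in knockout cells against 51.5 ± 1.75 CPM in control cells (-0.14 log2 units) and PCBD1, which regenerates the cofactor tetrahydrobiopterin, 46.4 ± 1.61 CPM in knockout cells against 41.8 ± 1.73 CPM in control cells (0.15). Both passed the test with all libraries, PCBD1 not after rescaling. GSTZ1 did not (limma adjusted p = 0.0576 to 0.0923) without knockout library 1 or 4 or control library 1 or 4, nor PCBD1 (limma adjusted p = 0.0786 to 0.0973) without knockout library 2 or 3 or control library 3 or 4. QDPR, which recycles the same cofactor, did not pass the test (-0.06). Among the genes that handle acetoacetate, a product of FAH, all 6 tested members passed the test, 4 downward and 2 upward, although BDH2 did not after rescaling. The thiolase genes ACAT2 and ACAT1 fell by 0.23 and 0.19 log2 units. BDH1, which interconverts acetoacetate and 3-hydroxybutyrate, was measured at 44.6, 45.4, 48.1 and 46.2 CPM in the knockout libraries, against 54.2, 55.0, 53.1 and 51.7 CPM in the control libraries, and fell by 0.21. AACS, which activates acetoacetate for lipid synthesis, rose by 0.28. BDH2, at 0.16, lost its call (limma adjusted p = 0.0622 to 0.124) without knockout library 1, 3 or 4 or control library 1, 2 or 3. OXCT1, the enzyme that lets cells burn acetoacetate, stayed below 1 CPM in all 8 vehicle libraries. Of 17 heme genes 3 rose and 3 fell, against 24.9% and 13.5% of all tested genes, or 1 fell without knockout library 4 or control library 2 or 3. ALAD, the heme enzyme that is inhibited by succinylacetone, a by-product of the blocked pathway, averaged 16.1 ± 1.89 CPM in knockout cells against 18.7 ± 1.99 CPM in control cells (-0.21 log2 units), with overlapping groups. It stood at the threshold (limma adjusted p = 0.04996) and passed it in only 2 of the 8 fits that left out a vehicle library, with limma adjusted p = 0.0511 to 0.23 without knockout library 1, 3 or 4 or control library 1, 2 or 3.

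Over all tested genes 3919 (24.9%) rose and 2118 (13.5%) fell, 38.4% together. Most changes were small. Fold changes in this paragraph are on the log2(CPM + 1) scale, so some genes at low CPM with a larger ratio of mean CPM fall under a limit. CDKN2B, with a ratio of 2.36 and 0.98 log2 units, is not counted at 2-fold. Of those that rose 85 did so by at least 2-fold, 478 by at least 1.5-fold and 2103 by less than 1.25-fold, and of those that fell the counts were 32, 170 and 1304. The direction of small changes depends on the scale. With median-of-ratios rescaling, which lowered the median difference by 0.054 log2 units to 0.0002, 2810 genes rose (17.9%) and 2932 fell (18.6%), so 48.9% of the calls were upward in place of 64.9%. All 2118 genes lower as deposited were lower after rescaling as well. The shares of all tested genes, as deposited and after rescaling, are the background for the counts in the lists below. In the abemaciclib libraries, which share none of the libraries above, 1935 of the 3919 genes (49.4%) were higher in knockout cells again, against a background of 19% higher in that comparison, and 55 were lower. They made up 64.7% of the genes higher there. Both comparisons come from 1 model with 1 estimate of spread per gene, so a gene with a small spread is called more readily in both. The overlap of calls, in either direction, is thus not that of independent tests. Of the 2118 genes 1002 (47.3%) were lower again, against a background of 11.6%, and 69 were higher, and the 1002 made up 54.9% of the genes lower there. Of the changes of at least 2-fold, 81 of 85 upward and 27 of 32 downward had the same call under abemaciclib.

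The largest gain of any tested gene was that of PLEKHS1, which encodes a pleckstrin homology domain protein, at 8.02, 7.68, 7.52 and 7.39 CPM in the knockout libraries, against 0.504, 0.595, 1.01 and 0.754 CPM in the control libraries. It rose by 2.34 log2 units (SE 0.111, limma adjusted p = 7.6e-18), and the ratio of mean CPM was 10.7. PLEKHS1 met the minimum through the knockout libraries, which limits what its p-value says. The 14 next largest gains of protein-coding genes with a mean of at least 5 CPM in the knockout libraries were those of RELB, IFIT3, OAS1, TFAP2B, ISG15, XAF1, STEAP1, IFIT1, ICAM1, SAMD9, EFNB2, IFITM3, SHFL and OPTN, between 1.41 and 2.06 log2 units. SHFL, an interferon-induced inhibitor of ribosomal frameshifting, rose by 1.42. EFNB2, the ephrin B2 ligand, was measured at 6.27, 6.28, 6.27 and 5.18 CPM in the knockout libraries, against 1.21, 1.88, 1.51 and 1.603 CPM in the control libraries. By the same conditions, the largest losses after FAH were those of ASNS, SLC7A11, PHGDH, S100A1, PSAT1, LIN28A, PCK2, TFF3, MATN3, FOLR1, ALDH1L2, TRIB3, AREG and ACOX2, between -1.76 and -1.12. ASNS, PHGDH, PSAT1, PCK2 and ALDH1L2 are enzymes of amino acid and one-carbon metabolism. INHBE, which encodes a subunit of activin E, stayed under that minimum and was named after its values were seen. It was at 0.418, 0.199, 0.269 and 0.277 CPM in the knockout libraries, against 4.44, 5.36, 3.98 and 5.56 CPM in the control libraries, so it passed the filter through the control libraries alone. None of the 30 genes above overlapped between the groups, which is a condition of the rule that names them.

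Sequences just before the transcription start were read for genes of the interferon, NF-kappaB and amino acid groups, to show the elements named above where a window held one. They come from RefSeq promoters of GRCh38.p14, each of 300 bases around a start, of which 27305 were given and 10654 matched a tested gene. Capitals mark the interferon-stimulated response element core, searched on both strands as GAAA, any 2 bases and GAAA, so that TTTC, any 2 bases and TTTC is its other strand. Of the genes read, no match lay before the start of OAS1, MX1 or RIGI, which says only that these letters are not in that window, and the windows that held one are shown. The window of IFIT1 is chr10:89392482-89392571 on the plus strand, that of IFIT3 chr10:89327816-89327905 on the plus strand and that of ISG15 chr1:1013359-1013448 on the plus strand, where 2 copies overlap.
IFIT1: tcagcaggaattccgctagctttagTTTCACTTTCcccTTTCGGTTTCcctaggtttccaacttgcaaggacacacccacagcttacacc
IFIT3: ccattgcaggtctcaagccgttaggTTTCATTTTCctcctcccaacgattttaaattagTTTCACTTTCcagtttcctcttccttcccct
ISG15: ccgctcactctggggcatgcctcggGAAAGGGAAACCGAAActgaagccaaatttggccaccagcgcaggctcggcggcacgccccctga
The core was found in 3.65% of all 27305 promoters and 2.62% of those of tested genes. Of the 46 promoters found for the 3 lists of interferon-stimulated genes, 31 (67.4%) held it. These counts cover all 300 bases, including those after the start. They include MX1, whose match does not lie wholly before the start. A match is a stretch of letters and does not show that a factor bound there.

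Interferon-stimulated genes rose almost as a whole list. All 7 tested IFIT and IFITM genes, whose proteins bind viral RNA or block viral entry, rose (median 1.40 log2 units), as did 4 of 5 genes of the OAS list (median 1.20) and 41 of 43 other interferon-stimulated effectors (median 0.77), with none lower, against 24.9% higher and a median of 0.054 over all genes. IFIT3 was measured at 36.9, 40.8, 39.1 and 37.7 CPM in the knockout libraries, against 10.99, 8.48, 8.27 and 9.36 CPM in the control libraries. It rose by 1.95 log2 units (SE 0.0707, limma adjusted p = 5.3e-21). OAS1, which makes a messenger of the antiviral response, was measured at 39.3, 41.6, 41.3 and 36.3 CPM in the knockout libraries, against 11.02, 9.82, 9.48 and 10.3 CPM in the control libraries, a gain of 1.87 (SE 0.0628, limma adjusted p = 1.0e-21). In both genes every knockout library lay far above every control library. ISG15, a ubiquitin-like modifier, reached 166, 176, 178 and 175 CPM in the knockout libraries, against 53.5, 52.7, 51.5 and 54.1 CPM in the control libraries, and rose by 1.70. MX1, a GTPase against RNA viruses, averaged 183 ± 3.83 CPM in knockout cells against 70.6 ± 1.93 CPM in control cells and rose by 1.36. RSAD2 (viperin) was at 3.05 to 4.85 CPM in the knockout libraries, against 0.656 to 0.806 CPM in the control libraries. It is 1 of 4 members of the last list that passed the minimum through the knockout libraries alone, and without these 37 of 39 rose.

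Of 18 tested nucleic acid sensors and adaptors 13 rose and 2 fell (median 0.35), against 24.9% and 13.5% of all tested genes. Whether these changes came before or after those of the interferon-stimulated genes was not tested. RIGI, a sensor of viral RNA ends, was measured at 15.1, 14.1, 13.3 and 14.9 CPM in the knockout libraries, against 4.78, 4.86, 4.96 and 5.27 CPM in the control libraries, with reads partly shared with other loci. IFIH1 (MDA5), which detects long double-stranded RNA, averaged 22.5 ± 0.759 CPM in knockout cells against 10.5 ± 1.218 CPM in control cells and rose by 1.04, TLR3 by 0.66, DHX58 by 0.63, EIF2AK2 (PKR) by 0.50 and ADAR, which edits double-stranded RNA, by 0.46. Both falls were in subunits of ribonuclease H2, RNASEH2A (-0.47) and RNASEH2C (-0.29). CGAS, the cytosolic DNA sensor, stayed below 1 CPM in all vehicle libraries, and STING1, its adaptor, did not pass the test (0.12). Of 22 receptors, kinases, STATs and IRFs 11 rose and 1 fell (median 0.23). IRF1 was measured at 11.7, 10.97, 11.7 and 11.1 CPM in the knockout libraries, against 3.53, 4.30, 3.53 and 3.68 CPM in the control libraries and rose by 1.38. IRF7 rose by 0.73, TYK2 by 0.65, IRF9 by 0.61 and STAT2 by 0.44. The fall was in JAK1, a kinase that type I and type II interferon receptors share, at 77.7, 71.4, 78.5 and 72.8 CPM in the knockout libraries, against 114, 118, 119 and 119 CPM in the control libraries, a change of -0.64 log2 units without overlap. Interferon genes were near the limit of the depth. IFNL1, a type III interferon, was at 0.585, 0.399, 0.627 and 0.462 CPM in the knockout libraries, against 0.303, 0.0992, 0.101 and 0.0943 CPM in the control libraries, which is under 10 reads each, and IFNB1 was at 0 to 0.0997 CPM in the knockout libraries and at 0 to 0.101 CPM in the control libraries. Both were below the minimum, were looked up after the other values were seen and were not tested.

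**Figure D2:**
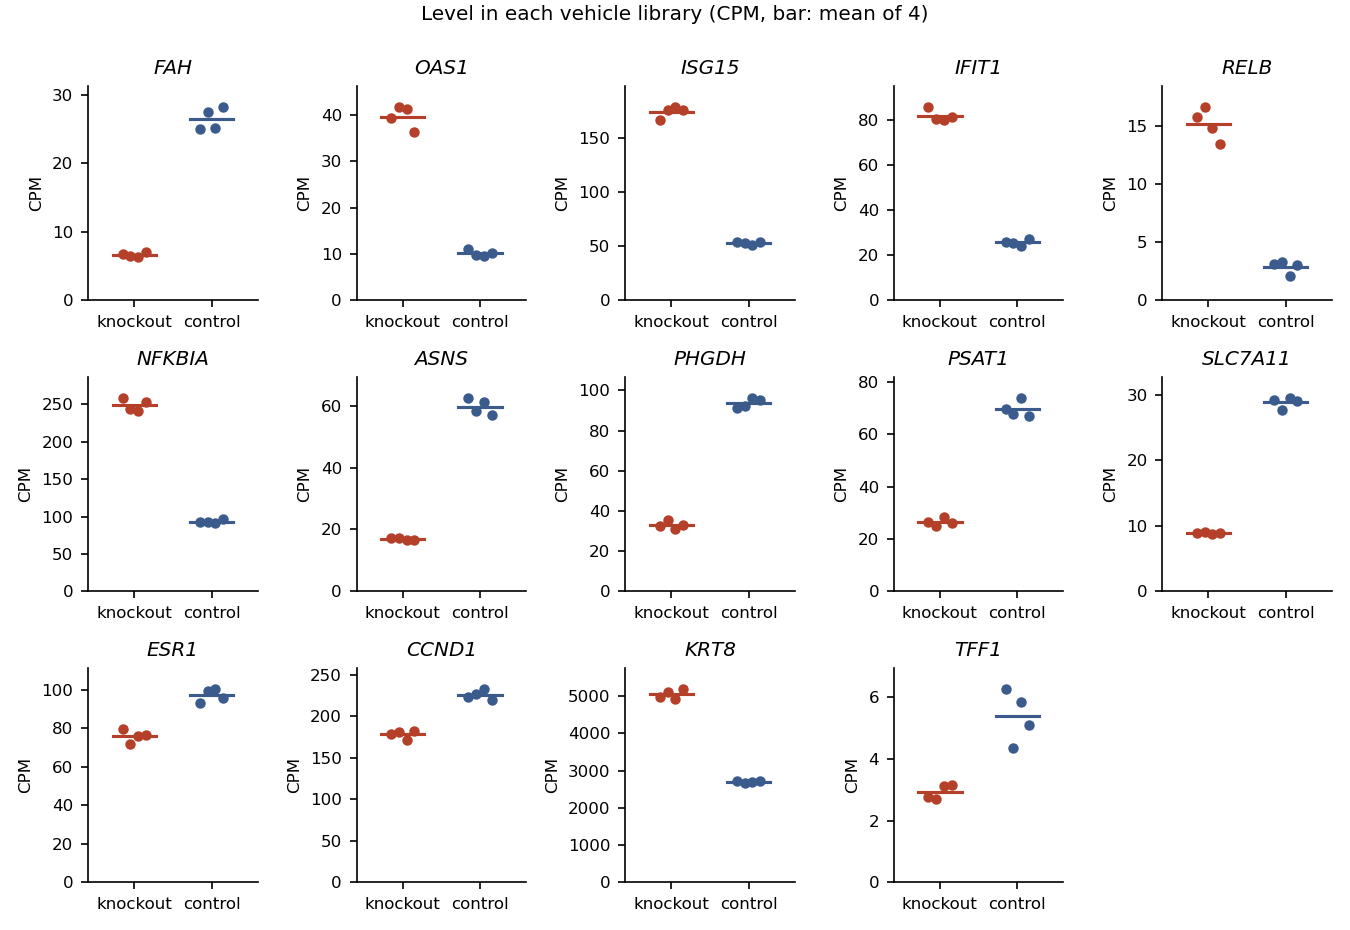
CPM of 14 genes in the 4 knockout (left) and 4 control (right) vehicle libraries, a point per library and a bar at the mean, on linear axes that start at 0. OAS1, ISG15, IFIT1, RELB, NFKBIA and KRT8 lie higher and FAH, ASNS, PHGDH, PSAT1, SLC7A11, ESR1, CCND1 and TFF1 lower in the knockout libraries, without overlap. The same held for 22.5% of all tested genes upward and 13% downward.

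For NF-kappaB the motif searched on both strands was GGG, any 2 bases and TTTCC, which reads GGAAA, any 2 bases and CCC on the other strand. It was found in 1.92% of all promoters and in 7 of the 19 promoters (36.8%) of the list of subunits and inhibitors. Of the genes read, ICAM1 and NFKB2 held none before the start, NFKB1 held 1, and 3 of the windows with a match are shown. The windows are NFKBIA chr14:35404766-35404855 on the minus strand, TNFAIP3 chr6:137867167-137867256 on the plus strand and BIRC3 chr11:102317260-102317349 on the plus strand, with the matches in capitals.
NFKBIA: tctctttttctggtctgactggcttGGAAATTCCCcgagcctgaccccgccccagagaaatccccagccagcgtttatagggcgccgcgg
TNFAIP3: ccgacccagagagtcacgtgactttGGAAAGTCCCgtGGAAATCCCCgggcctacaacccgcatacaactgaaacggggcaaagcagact
BIRC3: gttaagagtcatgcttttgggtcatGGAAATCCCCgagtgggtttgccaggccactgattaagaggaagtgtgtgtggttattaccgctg
All 3 genes encode brakes or regulators of the pathway that NF-kappaB itself induces, and in knockout cells NFKBIA and BIRC3 rose, while TNFAIP3 was below 1 CPM in every control library.

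Of 22 tested NF-kappaB subunits, inhibitors and regulators 18 rose and none fell (median 0.46 log2 units). For this and the next lists, the background was 24.9% of all tested genes higher and 13.5% lower. NFKBIA, the inhibitor IkappaB alpha, was measured at 258, 244, 241 and 253 CPM in the knockout libraries, against 93.1, 92.3, 91.4 and 96.3 CPM in the control libraries, a gain of 1.41 (SE 0.0343, limma adjusted p = 1.7e-25). RELB, the subunit of the non-canonical branch, was measured at 15.7, 16.6, 14.8 and 13.4 CPM in the knockout libraries, against 3.13, 3.27, 2.12 and 3.02 CPM in the control libraries, and rose by 2.06 (SE 0.117, limma adjusted p = 9.7e-16). In both, every knockout library lay far above every control library. Without TNFAIP3 (A20), which passed the minimum through the knockout libraries alone (1.18 log2 units), 17 of 21 rose. BIRC3 rose by 1.12, NFKBIE by 0.85, BCL3 by 0.83, NFKB2 by 0.75, NFKB1 by 0.65 and RELA by 0.38. Of the output genes 7 of 13 tested rose and none fell (median 0.31), with 1 lower without knockout library 4 or control library 3 and after rescaling. ICAM1, an adhesion receptor for leukocytes, rose by 1.48, to 9.51 ± 0.703 CPM in knockout cells against 2.77 ± 0.262 CPM in control cells, and CSF1 by 0.62. LTB (lymphotoxin beta), below 1 CPM in every control library, differed by 0.79, and without it 6 of 12 rose. A further 21 output genes were below the minimum and were not tested. Of the TNF receptor superfamily and its ligands 7 of 19 rose, with TNFSF15 (0.83) and TNFSF10 (TRAIL, 0.67) first, and FAS fell (-0.36), or 6 rose and 2 fell after rescaling. AP-1 and immediate early genes rose in 13 of 22 (median 0.40), among them FOS (0.74), MAFK (0.71), JUND (0.67), FOSL2 (0.62), JUNB (0.54) and JUN (0.49), while ZFP36L2 and NR4A1 fell by 0.70 and 0.52. After rescaling 4 of that list fell.

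Antigen presentation genes moved upward with them. Of 16 MHC class I and peptide-loading genes 12 rose and 1 fell (median 0.45), or 11 and 2 after rescaling, although 10 of the 16 have partly shared reads, as MHC genes resemble each other. HLA-B was measured at 1139.6, 1107, 1105 and 1104 CPM in the knockout libraries, against 778, 791, 756 and 789 CPM in the control libraries, without overlap. The peptide trimmers ERAP2 and ERAP1 rose by 0.88 and 0.61, the transporter TAP1 by 0.67 and B2M by 0.26. CALR, a chaperone of loading, fell by 0.09, but stood at 0.02 after quantile normalization. The immunoproteasome, the interferon-inducible form of the proteasome, rose in 4 of 5 members. PSMB9 was measured at 25.8, 29.4, 24.8 and 22.8 CPM in the knockout libraries, against 14.9, 11.9, 11.7 and 11.8 CPM in the control libraries and rose by 0.98, PSMB10 by 0.66 and PSMB8 by 0.64. The constitutive proteasome had 16 of 33 higher with a median of 0.09, and 6 higher with 4 lower after rescaling. Among class II genes HLA-DQB1 rose by 0.94, to 16.9 ± 1.08 CPM in knockout cells against 8.33 ± 1.29 CPM in control cells, while CIITA, the master regulator of class II, stayed below 1 CPM in all 8 vehicle libraries.

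For the amino acid genes the searched C/EBP-ATF motif was TGATGNAA on both strands (TTNCATCA on the other), found in 3.67% of all promoters and 1.56% of those of tested genes. Of the genes read, PSAT1, TRIB3, PHGDH, SESN2, SLC7A5, ATF4 and PCK2 held none before the start, and ASNS and CHAC1, which held 1 each, are shown. The windows are ASNS chr7:97872412-97872501 on the minus strand and CHAC1 chr15:40953237-40953326 on the plus strand.
ASNS: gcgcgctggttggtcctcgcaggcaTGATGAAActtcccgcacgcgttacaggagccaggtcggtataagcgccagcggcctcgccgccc
CHAC1: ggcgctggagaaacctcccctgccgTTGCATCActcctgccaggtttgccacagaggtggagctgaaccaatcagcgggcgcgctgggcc
Over the 5 amino acid and stress response lists, 11 of 43 promoters (25.6%) of members called lower held the motif, against 4 of 49 (8.16%) of the other members. This split rests on the calls themselves and was not tested.

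Genes of amino acid supply were among the largest losses, led by ASNS, asparagine synthetase, at 17.3, 17.2, 16.6 and 16.5 CPM in the knockout libraries, against 62.3, 58.4, 61.1 and 56.8 CPM in the control libraries. It fell by 1.76 log2 units (SE 0.0630, limma adjusted p = 4.1e-21), and every knockout library lay far below every control library. A long non-coding gene that spans ASNS on the same strand (ENSG00000284707, also with partly shared reads) averaged 16.9 ± 0.364 CPM in knockout cells against 58.9 ± 2.18 CPM in control cells, and whether reads of the locus were divided between them was not tested. Serine and one-carbon enzymes fell in 13 of 22 and rose in 3 (median -0.16), against 13.5% lower over all genes. PHGDH, the first step of serine synthesis, was measured at 32.4, 35.3, 31.2 and 33.3 CPM in the knockout libraries, against 91.0, 92.2, 96.0 and 95.1 CPM in the control libraries, and fell by 1.47 (SE 0.0522, limma adjusted p = 3.3e-21). The next steps, PSAT1 and PSPH, fell by 1.36 and 0.78. The mitochondrial folate enzymes SHMT2, MTHFD2, MTHFD1L and ALDH1L2 fell by 0.69, 0.58, 0.52 and 1.18, while SHMT1, the cytosolic form of SHMT2, did not pass the test (-0.12) as deposited and did after rescaling (-0.18). GNMT, which uses up methyl groups, rose by 0.63. Of the enzymes of asparagine, proline, glutamine and cysteine metabolism 9 of 22 fell and 7 rose, or 12 fell and 3 rose after rescaling. PCK2, the mitochondrial PEP carboxykinase, fell by 1.28, CHAC1, which degrades glutathione, by 1.02 and GPT2 by 0.87. GLUL, glutamine synthetase, went the other way, at 179, 179.6, 169.6 and 179 CPM in the knockout libraries, against 96.7, 102, 101 and 96.1 CPM in the control libraries, a gain of 0.83.

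Amino acid transporters split, with 9 of 20 lower and 6 higher, where 13.5% of all tested genes fell and 24.9% rose. SLC7A11, the cystine importer, was measured at 8.94, 9.08, 8.78 and 8.96 CPM in the knockout libraries, against 29.2, 27.7, 29.4 and 29.1 CPM in the control libraries, and fell by 1.59 (SE 0.0876, limma adjusted p = 4.3e-16). SLC7A5, which carries large neutral amino acids including tyrosine, was measured at 118, 128, 109 and 115 CPM in the knockout libraries, against 232, 234, 228 and 229 CPM in the control libraries and fell by 0.97, with its partner SLC3A2 at -0.20. SLC43A1, SLC1A5 and SLC6A9 fell by 1.16, 0.64 and 0.63. SLC6A14, a broad amino acid importer, was at 1.67 to 2.15 CPM in the knockout libraries, against 0 to 0.202 CPM in the control libraries, and passed the minimum through the knockout libraries alone. Without SLC6A14, 5 of 19 transporters rose and 9 fell. Cytosolic aminoacyl-tRNA synthetases, which load amino acids onto tRNA, fell in 12 of 22 and rose in 2 (median -0.21). GARS1 averaged 188 ± 5.86 CPM in knockout cells against 305 ± 5.79 CPM in control cells and fell by 0.70, and YARS1, the enzyme for tyrosine, fell by 0.62.

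The regulators of the integrated stress response showed the same tilt, with 14 of 28 lower and 6 higher (median -0.15), or 15 lower and 2 higher after rescaling. Over all tested genes 13.5% fell and 24.9% rose, or 18.6% and 17.9% after rescaling. ATF4 mRNA was measured at 161, 175, 167 and 160.2 CPM in the knockout libraries, against 271, 239, 246 and 252 CPM in the control libraries, with partly shared reads, and fell by 0.60. Its targets TRIB3, STC2, SESN2 and CEBPG fell by 1.18, 0.69, 0.53 and 0.46, whereas ATF3 (0.12) and DDIT3 (CHOP, -0.11) did not pass the test, although DDIT3 did after rescaling (-0.17). EIF2AK2, an interferon-induced member of the same list, rose. The unfolded protein response list had 10 of 26 lower and 6 higher, all within 0.39 log2 units of 0 among the called, with HSPA5 at 0.00 and XBP1 at -0.13. After rescaling 13 were lower and 2 higher.

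These amino acid genes were among those whose knockout effect differed between treatments. The difference between the knockout effects under abemaciclib and under vehicle passed the test for 11.2% of all genes and for 9 of 15 genes chosen for this test, with values of 1.47 log2 units for ASNS (limma adjusted p = 7.7e-14), 1.44 for SLC7A11 (limma adjusted p = 3.4e-10), 0.98 for PSAT1 and 0.51 for PHGDH. Under abemaciclib the knockout effect was -0.29 for ASNS, -0.15 for SLC7A11 (which did not pass the test), -0.38 for PSAT1 and -0.97 for PHGDH. In the abemaciclib libraries ASNS averaged 15.5 ± 1.51 CPM in knockout cells against 19.1 ± 0.873 CPM in control cells, and SLC7A11 6.71 ± 1.06 CPM in knockout cells against 7.51 ± 0.775 CPM in control cells (SD, n = 4 each). In control cells both genes were thus lower under abemaciclib than under vehicle (no library of the one treatment reached those of the other), while the knockout levels of ASNS lay close together under both treatments. The interferon genes OAS1, ISG15 and IFIT1 had knockout effects of 1.29, 0.90 and 0.98 under abemaciclib, smaller than under vehicle by 0.57, 0.80 and 0.65. FAH, RELB, NFKBIA, ESR1, KRT8 and TFF1 did not pass the test of a difference between treatments. CCND1 differed by -0.26.

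**Figure D3:**
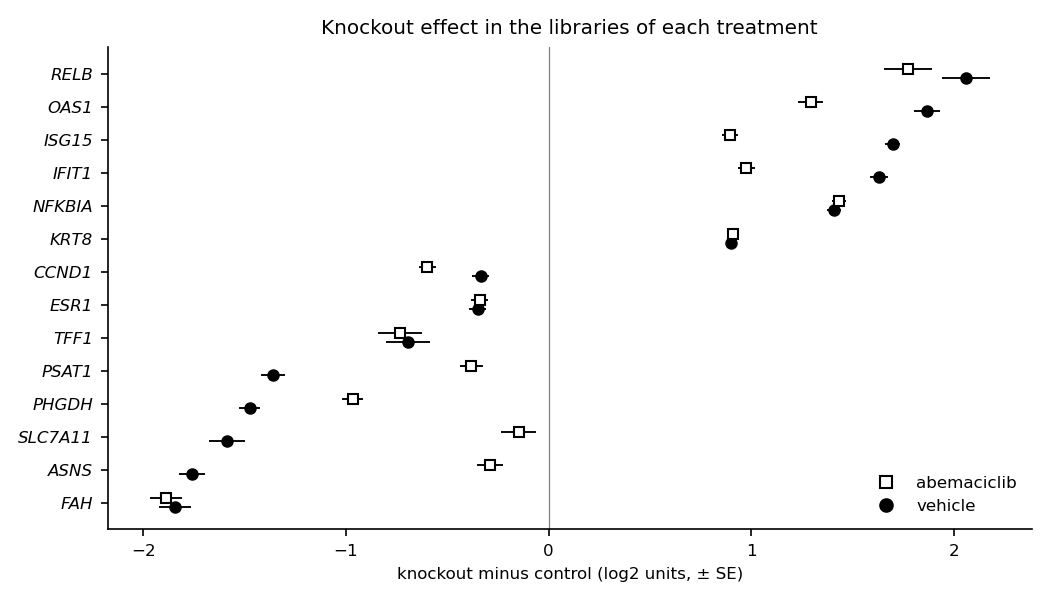
Knockout minus control difference in log2 units (± SE) of 14 genes under abemaciclib (open squares) and under vehicle (filled circles), from separate libraries. ASNS and SLC7A11 lie at -0.29 and -0.15 under abemaciclib and at -1.76 and -1.59 under vehicle, while FAH, RELB, NFKBIA and KRT8 lie close together in both.

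Genes of protein synthesis and respiration fell slightly and broadly. The background over all tested genes was 13.5% lower and 24.9% higher as deposited, and 18.6% lower and 17.9% higher after rescaling. Of 84 cytosolic ribosomal protein genes 73 fell and RPS27L rose (median -0.22 log2 units), but 78 of the 84 have partly shared reads. Together they held 15.3 ± 0.128% of reads in the knockout libraries and 17.8 ± 0.225% in the control libraries (SD, n = 4 each). Of 39 translation factors 16 fell and 7 rose, with 22 and 4 after rescaling. Of 78 mitochondrial ribosomal protein genes 31 fell and 4 rose, with 44 and 3 after rescaling. Under abemaciclib both lists had more members higher than lower in knockout cells, with 13 translation factors higher and 5 lower and 19 mitochondrial ribosomal proteins higher and 4 lower. In that comparison 19% of all tested genes were higher and 11.6% lower. Nuclear-encoded subunits of the respiratory chain fell in 61 of 81, and NDUFA8 rose (2 rose without knockout library 2 or 3 or control library 1), a call that was lost after rescaling (0.09). The falls were 23 of 37 for complex I, 12 of 14 for complexes II and III, 11 of 12 for complex IV and 15 of 18 for complex V. The medians of these 4 lists lay between -0.20 and -0.12 log2 units. COX8A, a complex IV subunit, showed the largest change among them, at 738, 775, 741 and 745 CPM in the knockout libraries, against 1061, 1052, 1031 and 1033 CPM in the control libraries, a fall of 0.48. Under abemaciclib 17 of the same 81 fell and 10 rose, and of the ribosomal protein genes 34 fell and 8 rose. The mRNAs encoded by mitochondrial DNA were mixed, with 6 of 13 higher and 4 lower. MT-ND5 was measured at 1341, 1351, 1443 and 1429 CPM in the knockout libraries, against 2003, 2050.0, 2041 and 2186 CPM in the control libraries, a fall of 0.57, and MT-CYB at 8552, 8334, 9028 and 8685 CPM in the knockout libraries, against 6574, 6698, 6696 and 7098 CPM in the control libraries, a gain of 0.35. All 13 have partly shared reads.

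Central carbon genes changed in both directions, where 24.9% of all tested genes rose and 13.5% fell, or 17.9% and 18.6% after rescaling. The shares that rose in glycolysis and in the tricarboxylic acid cycle did not exceed these. In glycolysis and lactate export 9 of 24 fell and 5 rose, or 3 rose without knockout library 2, 3 or 4 or control library 2, 3 or 4. After rescaling 11 fell and 3 rose. The lactate transporters SLC16A3 and SLC16A1 fell by 0.71 and 0.49 and the lactate dehydrogenases LDHA and LDHB by 0.45 and 0.42. The tricarboxylic acid cycle list had 10 of 30 lower and 6 higher, or 15 and 4 after rescaling. FH, which turns fumarate, the other product of FAH, into malate, fell by 0.20, to 46.0 ± 1.59 CPM in knockout cells against 52.9 ± 2.83 CPM in control cells. Cholesterol synthesis rose in 16 of 27 and fell in 3, or in 1 without knockout library 3 or control library 1 (median 0.24). LSS, lanosterol synthase, was at 60.9, 62.1, 62.6 and 61.5 CPM in the knockout libraries, against 36.6, 40.8, 35.5 and 34.9 CPM in the control libraries, a gain of 0.73, HMGCS1 at 0.72 and IDI1 at 0.45. Among fatty acid genes, FASN, the synthase, rose by 0.59, LPIN1 by 0.81 and DGAT2 by 0.76, while ELOVL6 fell by 0.46. ACOX2, a peroxisomal oxidase of branched chains and bile acid precursors, fell by 1.12.

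Redox and iron genes showed no common direction, where 24.9% of all tested genes rose and 13.5% fell, or 17.9% and 18.6% after rescaling. Of the NRF2 targets and antioxidants 11 of 26 rose (7 without knockout library 4 or control library 2) and 7 fell as deposited, and 5 rose and 8 fell after rescaling. NQO1 and TXNRD1 rose by 0.22 and 0.30, GPX4 fell by 0.28, and HMOX1 did not pass the test (0.03). STEAP1, a membrane protein of the STEAP family, was measured at 19.2, 20.5, 18.8 and 19.5 CPM in the knockout libraries, against 5.04, 6.15, 5.95 and 4.95 CPM in the control libraries, without overlap, and rose by 1.65 (SE 0.0802, limma adjusted p = 1.3e-17). STEAP2, its relative, rose by 0.46, FTL by 0.49, and TFRC, the transferrin receptor, fell by 0.27.

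Of 54 lysosome and autophagy genes 28 rose and 4 fell (median 0.17), and heat shock genes rose in 13 of 25 and fell in 3. The background over all tested genes was 24.9% higher and 13.5% lower. OPTN, an autophagy receptor that also regulates NF-kappaB signalling, was measured at 127, 121, 120.3 and 118 CPM in the knockout libraries, against 44.9, 45.4, 47.02 and 43.3 CPM in the control libraries, and rose by 1.41 (SE 0.0411, limma adjusted p = 1.4e-23). SQSTM1 (p62) rose by 0.60, GABARAPL1 by 0.58, TFE3, a transcription factor of lysosomal genes, by 0.57, and HSPH1 and HSPB1 by 0.58 and 0.56. Of 29 regulators of mTORC1 11 rose and 3 fell, or 5 and 3 after rescaling, with DEPTOR, its inhibitor, at 0.72.

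**Figure D4:**
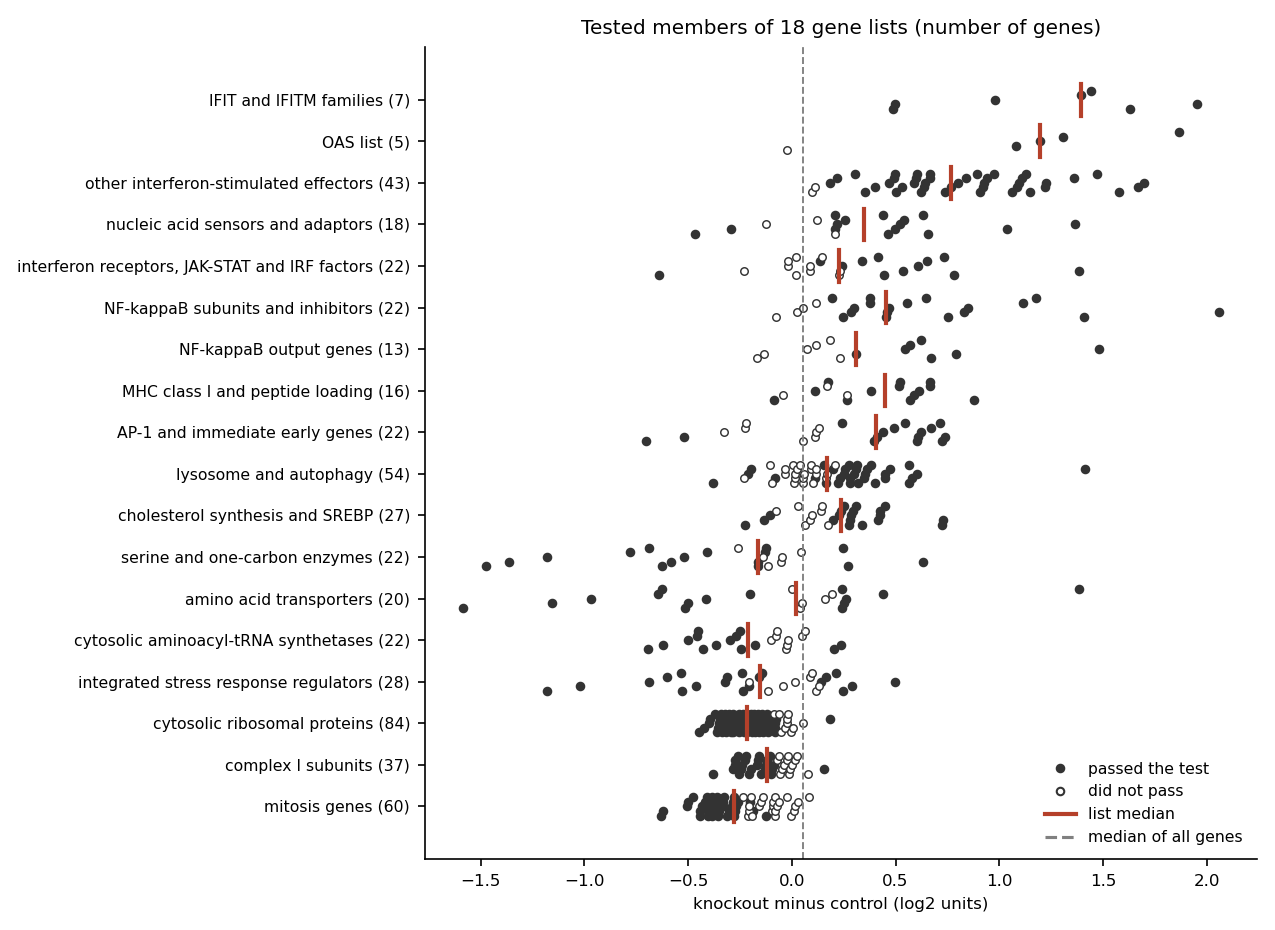
Knockout minus control difference in log2 units of every tested member of 18 gene lists, a point per gene, filled where it passed the test, with the list median as a vertical bar and the median over all tested genes (0.054) as a dashed line. The interferon-stimulated and NF-kappaB lists lie to the right, the ribosomal protein, respiratory chain and mitosis lists to the left with small values, and the amino acid lists have long tails to the left.

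Genes of mitosis and replication fell or did not pass the test, where 13.5% of all tested genes fell and 24.9% rose. Of 60 mitosis genes 37 fell and none rose (median -0.28), of 51 replication genes 19 fell and none rose (median -0.12), and of 32 genes of homologous recombination and the Fanconi pathway 14 fell and 2 rose (median -0.22). PTTG1 (securin) was measured at 288, 275, 291 and 278 CPM in the knockout libraries, against 433, 436, 443 and 439 CPM in the control libraries, and fell by 0.63. CDKN3 fell by 0.59, CCNB2 by 0.50, CDK1 by 0.39 and FANCD2 by 0.50. In the RB axis CCND1 (cyclin D1) fell by 0.34, to 179 ± 5.28 CPM in knockout cells against 226 ± 5.45 CPM in control cells, CDK6 rose by 0.70, at 4.99 to 6.44 CPM in the knockout libraries, against 2.72 to 3.49 CPM in the control libraries, and CDK4 and RB1 did not pass the test (-0.03 and 0.05). CDKN2B, which encodes the CDK4 and CDK6 inhibitor p15, rose by 0.98, to 5.81 ± 0.319 CPM in knockout cells against 2.47 ± 0.476 CPM in control cells, CDKN1C by 0.68 and CDKN1A by 0.18, a call that was lost after rescaling (0.12). Replication-dependent histones, of which 12 of 28 have shared reads, rose in 10 and fell in 5. H4C3 fell by 1.003, at 155 to 188 CPM in the knockout libraries, against 307 to 373 CPM in the control libraries. MYC did not pass the test (0.08) in the model of all 16 libraries.

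Estrogen receptor targets moved in both directions, 13 of 36 upward and 18 downward, so 31 of 36 passed the test, against 38.4% of all genes. ESR1, the receptor, fell by 0.35, to 76.1 ± 3.18 CPM in knockout cells against 97.3 ± 3.24 CPM in control cells, and PGR by 0.14. The secreted trefoil factor TFF3 was measured at 107, 113, 108 and 107 CPM in the knockout libraries, against 264, 258, 251 and 270.3 CPM in the control libraries, and fell by 1.26 (SE 0.0322, limma adjusted p = 5.9e-25). TFF1 fell by 0.69, the protein disulfide isomerases AGR2 and AGR3 by 0.80 and 0.87, and AREG (amphiregulin), a ligand of the EGF receptor, by 1.18, to 59.1 ± 1.78 CPM in knockout cells against 135 ± 5.13 CPM in control cells. Against these, IRS1, the docking protein of the insulin and IGF1 receptors, was measured at 35.8, 36.2, 39.0 and 38.9 CPM in the knockout libraries, against 17.04, 14.6, 15.9 and 17.2 CPM in the control libraries and rose by 1.16. GREB1, a direct target of the receptor, rose by 0.28. HSD17B1, which converts estrone to estradiol, and STS, which frees estrone from its sulfate, rose by 1.11 and 0.85.

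Luminal transcription factors moved in both directions, with 8 of 20 higher and 8 lower. Here and for the next lists the background was 24.9% of all tested genes higher and 13.5% lower. GATA3 fell by 0.31, MYB by 0.52 and FOXA1 by 0.12. TFAP2B, which encodes an AP-2 factor, was measured at 5.27, 5.19, 5.37 and 4.99 CPM in the knockout libraries, against 1.21, 0.793, 0.806 and 0.848 CPM in the control libraries, and rose by 1.70 (SE 0.135, limma adjusted p = 4.4e-12). TFAP2B met the minimum through the knockout libraries. ELF3 rose by 0.97 and KLF4 by 0.61. Of 9 tested epithelial keratins 5 rose and KRT10 fell (-0.15), or 2 fell after rescaling. KRT8 was measured at 4974, 5109, 4931 and 5176 CPM in the knockout libraries, against 2715, 2664, 2695 and 2727 CPM in the control libraries, and rose by 0.90 (SE 0.0280, limma adjusted p = 9.1e-23), its partner KRT18 by 0.85, KRT7 by 0.55 and KRT80 by 1.02. KRT8, KRT18 and KRT19 have partly shared reads. Cell junction genes rose in 16 of 25 (median 0.19), and 1 fell, or none without knockout library 2, 3 or 4 or control library 1 or 2, and 2 after rescaling. Among those that rose were OCLN (0.45), CLDN4 (0.40) and CDH1 (0.35).

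Growth signalling genes changed as follows, where 24.9% of all tested genes rose and 13.5% fell. The receptors FGFR2 and ERBB2 rose by 0.68 and 0.53, to 15.4 ± 1.07 CPM in knockout cells against 9.21 ± 0.747 CPM in control cells and 68.4 ± 2.80 CPM in knockout cells against 47.2 ± 2.67 CPM in control cells, while EGFR (-0.15) did not pass the test as deposited. In insulin and IGF signalling 11 of 25 rose and 4 fell, with the phosphatase gene INPP4B at 0.67. DUSP4, a phosphatase that ERK induces and that acts back on it, was measured at 76.7, 77.8, 73.5 and 75.3 CPM in the knockout libraries, against 158, 162, 165 and 162 CPM in the control libraries, and fell by 1.08. YAP targets rose in 10 of 17 with none lower (median 0.17), with TGFB2 first (1.14, at 3.70 to 4.75 CPM in the knockout libraries, against 1.04 to 1.51 CPM in the control libraries) and CCN1 at 0.43. Of TGF-beta, BMP and WNT components 14 of 34 rose and 3 fell, with DKK1 at 0.91. BCL2 family genes rose in 9 of 17 and fell in 2, among them BCL2L1 (0.45) and MCL1 (0.33), while BCL2 did not pass the test (-0.16).

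Some of the larger changes lay outside these lists. LMO4, a cofactor of luminal transcription factors, was measured at 146, 145, 143 and 141 CPM in the knockout libraries, against 61.0, 59.9, 58.8 and 52.4 CPM in the control libraries, and rose by 1.30. KYNU, an enzyme of tryptophan breakdown, rose by 1.14, to 41.3 ± 0.895 CPM in knockout cells against 18.2 ± 1.05 CPM in control cells. VTCN1 (B7-H4), a checkpoint ligand of T cells, rose by 1.35, CASP4, a caspase that detects cytosolic lipopolysaccharide, by 1.04, and MVP, the major vault protein, by 1.09. FOLR1, the folate receptor alpha, was measured at 7.61, 6.08, 6.36 and 6.75 CPM in the knockout libraries, against 17.04, 16.4, 15.8 and 16.6 CPM in the control libraries, and fell by 1.18, and GGH, which trims the glutamate tail of folates, fell by 0.85. LIN28A, an RNA-binding protein that blocks let-7 processing, averaged 5.54 ± 0.801 CPM in knockout cells against 15.1 ± 1.19 CPM in control cells and fell by 1.31, S100A1 by 1.37, the transporter ABCC11 by 1.11 and the slow skeletal troponin TNNT1 by 1.11. KYNU, VTCN1, CASP4, MVP, LMO4, GGH, TNNT1, HSD17B1 and STS were picked after their values were seen.

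Among non-coding RNAs, 450 of 2479 lncRNAs (18.15%) rose and 165 (6.66%) fell, against 24.9% and 13.5% of all tested genes. NEAT1, the scaffold of nuclear paraspeckles, was measured at 2265, 2112, 2309 and 2169 CPM in the knockout libraries, against 1024, 1148, 1161 and 1088 CPM in the control libraries, and rose by 1.002 log2 units (SE 0.0465, limma adjusted p = 4.3e-18). Its knockout effect under abemaciclib was 0.04 and did not pass the test, and the difference between treatments did (-0.96, limma adjusted p = 1.9e-12). SLC9A3-AS1 and MIR4435-2HG rose by 1.19 and 1.005. SNORA12 fell by 1.14 and GAS5, a host gene of small nucleolar RNAs, by 0.44. The strand of counting is not stated, so reads of an antisense RNA and of the gene it overlaps cannot be told apart. Of 604 pseudogenes 162 fell and 44 rose, and 93 of the 162 carry the name of a ribosomal protein gene.

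For tested protein-coding genes with coordinates, median differences by nuclear chromosome lay between 0.012 (chromosome 18) and 0.085 (chromosome 11). That of the 13 protein-coding mitochondrial genes was 0.15. Of runs of 25 neighbouring genes of this kind, the highest median was 0.35 in a protocadherin gene cluster (chr5:140786136-141203779, 19 higher, none lower) and the lowest -0.20 on the long arm of chromosome 3 (chr3:160227454-171810950, 14 lower, 3 higher), while the middle 98% of runs lay between -0.079 and 0.21. Clustered protocadherins, cell adhesion genes of the cadherin family, were picked after their values were seen, so their count is a description. They rose in 38 of 48 and fell in none, against 24.9% and 13.5% of all tested genes. Of the 48, 44 have partly shared reads, so they are not separate measurements. Under abemaciclib 6 of the 48 were higher in knockout cells, against 19% of all tested genes. The runs also held the IFIT genes on chromosome 10 (0.26) and the IFITM genes on chromosome 11 (0.32).

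The labelled cell type was checked with markers. All 11 luminal markers were tested and their summed level was 14940 to 15350 CPM in the knockout libraries and 11410 to 11600 CPM in the control libraries, with 6 of 11 higher (KRT8, KRT18, MUC1, CDH1, KRT19 and EPCAM) and 5 lower (ESR1, GATA3, PGR, XBP1 and FOXA1). PGR and XBP1 no longer passed after quantile normalization (-0.05 and -0.02). Of 12 leukocyte markers 2 reached the minimum, and their list summed to 6.06 to 6.33 CPM in the knockout libraries and 6.94 to 7.71 CPM in the control libraries. Of 12 basal markers 6 reached the minimum, of which 1 rose and 1 fell, against 24.9% and 13.5% of all tested genes. The basal list summed to 121 to 128 CPM in the knockout libraries and 118 to 125 CPM in the control libraries. Of its members below the minimum, KRT5 was at 0 to 0.0997 CPM in the knockout libraries and listed at 0 in all control libraries. Of 14 mesenchymal markers 5 reached the minimum, of which 2 rose and 1 fell. Their list summed to 85.6 to 93.6 CPM in the knockout libraries and 79.1 to 83.4 CPM in the control libraries. In such bulk RNA, fewer cells that express a gene and less RNA of it per cell cannot be told apart.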

How the data were processed

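RNA was sequenced from 16 libraries of T47D cells, 4 for each pairing of genotype (FAH knockout or control guide) with treatment (500 nM abemaciclib for 3 days or vehicle). Per the labels' protocols, a commercial service extracted the RNA and the libraries were made from cDNA by tagmentation. Per the submitters' processing notes, the tools were STAR 2.7.11, SAMtools 1.22.1, featureCounts of Subread 2.1.1 and MultiQC 1.32, with the GRCh38 genome. The sources used here do not give the annotation release, the strand setting or the treatment of reads that map to several places. The authors deposited CPM, counts per 1000000 assigned reads, for 78986 features in 1 table, of which 92 are spike-in controls that were left out. Per the file itself, 51 gene symbols had been turned into dates or numbers by a spreadsheet and were restored, 36134 features had no symbol and 2111 shared one with another feature.

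Each library's value of 1 read was found from the low values. Between 70.2% and 71.8% of values came out within 0.02 of a whole number of reads, and 4999 of the 15722 tested genes did so in all 16 libraries, so no count test was run. Values that are not whole come from reads counted in part, as when a read maps to or overlaps several genes. Genes with whole reads in at most 8 of the 16 libraries (4868, or 31.0% of those tested) are said to have partly shared reads.

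From the deposited CPM, log2(CPM + 1) was fitted with limma 3.58.1 (R 4.3.3) with a trended prior, in 1 model of 4 group means over all 16 libraries, for genes that reached 1 CPM in 4 or more of the 8 vehicle libraries. The contrasts were knockout minus control under vehicle, the same under abemaciclib, and their difference, each with Benjamini-Hochberg adjustment over the 15722 genes and a threshold of 0.05. The code was checked on simulated data. The alternatives were another pseudocount, other filters, rescaling, quantile normalization, no trend, the vehicle libraries alone, a replicate block and leaving out each vehicle library. The counts of genes that changed the same way under abemaciclib and of interactions were followed through these alternatives by a choice made after seeing the data.

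Gene coordinates are from GENCODE 29 of GRCh38 and promoters from RefSeq. The genes named are the 15 protein-coding genes with the largest called increases and the 15 with the largest called decreases (a mean of 5 CPM or more in the group with the larger value, no overlap of groups), up to 5 non-coding genes of each direction, up to 6 called members of each direction from each of 74 gene lists, the tyrosine and acetoacetate genes, 15 lead genes and the 10 tested neighbours on each side of FAH. Genes outside this rule are named in the text as picked after their values were seen or as members that did not pass the test. Some genes that this rule selects are counted with their lists but not reported here by name. The members and lists were chosen with earlier results of these data known.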

Additional observations from a re-analysis of the deposited data

Results flagged for a closer look

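Of 426 groups of 4 libraries (the knockout or the control libraries of each tested gene named above), 24 (5.63%) had 1 library set apart from the other 3 by a gap that exceeded the 95% critical value of Dixon's test. Chance alone sets apart about 1 group in 20, so this share is near what chance gives.

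Among knockout libraries, library 1 was apart for B2M (997.9 CPM), HLA-B (1140 CPM) and ENSG00000284707, the non-coding gene that spans ASNS (17.42 CPM), above the other 3 in each. Library 2 was apart, below the other 3, for BDH2 (19.82 CPM), NQO1 (253.4 CPM) and ZFP36L2 (105.8 CPM). Library 3 was apart for GLUL (169.6 CPM, below) and MTHFS (26.11 CPM, above). Library 4 was apart above for BCL2 (2.68 CPM), ERBB2 (72.64 CPM) and SQSTM1 (214.5 CPM) and below for EFNB2 (5.175 CPM) and YARS1 (35.44 CPM).

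Among control libraries, library 1 was apart above for ABCC11 (51.08 CPM), PSMB9 (14.93 CPM), TFAP2B (1.21 CPM) and XAF1 (1.815 CPM) and below for AREG (127.4 CPM) and FANCD2 (33.89 CPM). Library 2 was apart above for ACOX2 (17.85 CPM) and RB1 (37.69 CPM) and below for KRT7 (37.19 CPM). Library 4 was apart, below the other 3, for FOS (6.599 CPM) and HSPA5 (471.9 CPM).

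The knockout effect differed between treatments for 9 genes tested by name, given here as the effect under abemaciclib minus that under vehicle. It was less negative under abemaciclib for ASNS (1.47 log2 units, limma adjusted p = 7.7e-14), SLC7A11 (1.44, limma adjusted p = 3.4e-10), PSAT1 (0.98, limma adjusted p = 2.5e-10) and PHGDH (0.51, limma adjusted p = 9.1e-06). It was smaller under abemaciclib for the interferon-stimulated genes ISG15 (-0.80, limma adjusted p = 1.6e-12), IFIT1 (-0.65, limma adjusted p = 3.6e-09) and OAS1 (-0.57, limma adjusted p = 2.4e-05). NEAT1 was higher in knockout cells under vehicle and did not pass the test under abemaciclib, a difference of -0.96 (limma adjusted p = 1.9e-12). CCND1 was lower in knockout cells by more under abemaciclib than under vehicle, by -0.26 (limma adjusted p = 0.00242).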

How the results depend on the processing

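FAH was lower in knockout cells under every alternative, between -1.978 (pseudocount of 0.1 CPM) and -1.84 log2 units, and between -1.869 and -1.816 without 1 library. The number of genes higher in knockout cells was 2810 after rescaling to 4096 in the 8 vehicle libraries alone, and 3492 to 3687 without 1 library, against 3919. The number lower was 1911 with no filter to 2932 after rescaling, and 1875 to 1991 without 1 library, against 2118. Genes with the same call under abemaciclib numbered 2286 with no filter to 2969, and 2726 to 2790 without 1 library, against 2937. Of the 15 lead genes 8 (no trend) to 10 (quantile normalization) passed the test of a difference between treatments, and 9 without any 1 library. Of 206 called genes selected by the naming rule or named in the text 11 lost the call under at least 1 setting. Rescaling lost PCBD1, NDUFA8, MTHFS, BDH2 and CDKN1A and added DDIT3, SHMT1 and EGFR, and quantile normalization lost PGR and XBP1, among others. CALR changed sign under quantile normalization (0.0228) and the cause was not tested. With the replicate number as a block 3944 genes were higher and 2119 lower, and no named gene changed its call. Deviations of same-numbered libraries correlated at -0.024 to 0.045, so the numbers share no more than a name. Depth limits genes near 1 CPM, about 10 reads.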
